A study of Mus musculus with 17 samples.

Results

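Messenger RNA of 10 heat shock proteins and co-chaperones (Hspa1a, Hspa1b, Hspa8, Hspa5, Hsp90aa1, Hsp90ab1, Hspb1, Hsph1, Dnajb1 and Bag3) was examined in cortical microvessels of wild-type (WT) and APP/PS1 mice. The genes were chosen by name from the rows of the deposited count table, and all 10 of 10 were found among its 42687 genes. APP/PS1 mice carry mutant human amyloid precursor protein and presenilin transgenes and are used as a model of amyloid deposition. The promoters that drive those transgenes are not given in the sources used here. Every mouse was 10 to 11 months old and had been injected intraperitoneally with a peptide at 10 mg/kg every 2 days for 2 weeks, either gp91-ds-tat, an inhibitor of the superoxide-producing enzyme NOX2, or its control form sgp91-ds-tat. The groups were WT with control peptide (labelled WT SC, n = 5), WT with inhibitor (labelled WT NOX2, n = 5), APP/PS1 with control peptide (labelled APP SC, n = 2) and APP/PS1 with inhibitor (labelled APP NOX2, n = 5). No group went without injection. The extraction protocol also mentions surgery and the cortex of that side, but no label names an operation for any group, so what surgery the mice had is not known here. The labels do not say whether the libraries of a group came from separate or pooled animals, so p-values measure the spread between these libraries, and replicate numbers below only name a library.

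Molecular chaperones bind unfolded or partly folded proteins and keep them from aggregating. HSP70 proteins (Hspa1a, Hspa1b, Hspa8) work with J-domain partners such as Dnajb1, which stimulate their ATPase, and with exchange factors such as Hsph1 and Bag3, which release ADP. HSP90 proteins (Hsp90aa1, Hsp90ab1) receive clients from HSP70, the small heat shock protein Hspb1 holds unfolded proteins without ATP, and Hspa5 (BiP) is the HSP70 of the endoplasmic reticulum (ER). Heat shock factor HSF1 induces many of these genes when proteins unfold in the cytosol by binding inverted repeats of a GAA unit. Hspa5 is induced by ER stress through the transcription factors ATF6 and XBP1.

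Promoter letters are shown first, for the members whose searched window held a heat shock or ER stress element. The RefSeq promoter table (GRCm38.p6) matched 7 of the 10 genes, and the 250 bases before each RefSeq start were searched on both strands. Hspa8, Hsp90aa1 and Hsp90ab1 were not matched, and the windows of Dnajb1 and Bag3 held neither kind of element. Capitals mark GAANNTTC, a pair of heat shock units facing each other, in Hspa1a at chr17:34972157-34972406 (minus strand), Hspa1b at chr17:34959239-34959488 (minus strand) and Hspb1 at chr5:135887669-135887918 (plus strand). They mark TTCNNGAA, the pair facing away, in a 30-base stretch of Hsph1 at chr5:149636351-149636380 (minus strand). In a 30-base stretch of Hspa5 at chr2:34772020-34772049 (plus strand) they mark the ER stress element, which is CCAAT and, after a spacer, CCACG.
Hspa1a: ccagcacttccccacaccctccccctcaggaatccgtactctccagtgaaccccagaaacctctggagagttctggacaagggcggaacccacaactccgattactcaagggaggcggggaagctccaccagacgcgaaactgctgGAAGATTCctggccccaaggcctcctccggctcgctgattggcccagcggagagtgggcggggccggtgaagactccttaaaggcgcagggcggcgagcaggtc
Hspa1b: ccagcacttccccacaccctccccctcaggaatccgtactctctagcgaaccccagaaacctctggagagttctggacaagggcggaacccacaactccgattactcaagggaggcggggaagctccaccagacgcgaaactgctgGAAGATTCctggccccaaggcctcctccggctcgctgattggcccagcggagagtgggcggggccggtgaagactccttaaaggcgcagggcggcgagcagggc
Hspb1: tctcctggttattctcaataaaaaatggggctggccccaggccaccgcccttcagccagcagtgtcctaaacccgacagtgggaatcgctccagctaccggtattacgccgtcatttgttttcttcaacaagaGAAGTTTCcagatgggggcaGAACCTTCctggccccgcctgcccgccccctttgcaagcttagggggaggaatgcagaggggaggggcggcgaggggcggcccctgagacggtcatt
Hsph1: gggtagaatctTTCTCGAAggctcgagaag
Hspa5: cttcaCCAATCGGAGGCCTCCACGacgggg

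The Hspa1a and Hspa1b windows were identical at 247 of 250 bases (98.8%), and in each the match lay 104 to 97 bases before the start. GAANNTTC was in 3 of the 7 members and in 6.69% of 32851 RefSeq promoter windows of this length. These 3 include the near copies Hspa1a and Hspa1b. A member was counted if any of its windows matched, whereas the percentages of windows count each window. TTCNNGAA was in 1 of the 7 and in 7.17% of windows. The 3-unit heat shock element, GAANNTTC followed at once by NNGAA, was in none of the 7 member windows and in 0.466% of all windows. The ER stress element was in Hspa5 and in 0.113% of all windows. It begins with CCAAT, so it overlaps the CCAAT box, which 5 of the 7 members and 33.8% of windows held. TATAAA was in 0 of the 7 members and in 12.4% of windows. A match describes letters in a window and does not show binding.

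All 10 genes are protein-coding. On GRCm38 (GENCODE vM21), Hspa1a lies at chr17:34969190-34972156 and its near copy Hspa1b at chr17:34956436-34959238. Hspa8 lies at chr9:40800984-40810087, Hspa5 at chr2:34771970-34777547, Hsp90aa1 at chr12:110690605-110702728 and Hsp90ab1 at chr17:45567775-45573271. Hspb1 lies at chr5:135887919-135889563, Hsph1 at chr5:149614287-149636376, Dnajb1 at chr8:83608193-83612653 and Bag3 at chr7:128523616-128546981. RefSeq and GENCODE starts differ for Hspa5, Hsph1, Dnajb1 and Bag3. The Hspa5 stretch printed above lies inside the GENCODE gene, and the Hsph1 stretch lies mostly inside it. A searched window of Dnajb1, at chr8:83608298-83608547, also lies inside its GENCODE gene. Reads from near-identical copies cannot always be assigned. Of the 50-base windows of Hspa1a transcripts, 66.3% also occur in another gene, mostly Hspa1b (58.8%), and for Hspa1b the share is 62.3%. The share was 50.1% for Hspb1 (mostly Hsp25-ps1), 47.5% for Hsp90aa1 (mostly Gm12346) and 39.4% for Hspa8 (mostly Gm15459). It was 3.44% for Hsp90ab1, 0.412% for Dnajb1, and 0 for Hspa5, Hsph1 and Bag3. How reads that map to several places were counted is not given in the sources used here, so the levels of Hspa1a, Hspa1b, Hspb1, Hsp90aa1 and Hspa8 are uncertain.

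Library totals ranged from 7316503 to 17862965 counts with a median of 11342154, and no 2 of the 17 libraries held identical values. The preparation is labelled as endothelial cells, pericytes and astrocytic endfeet, and their markers were present in every library: summed levels ran from 2649 to 4847 CPM (counts scaled to a common library size) for 8 endothelial genes and from 3002 to 5178 CPM for 6 astrocyte genes. Neuron markers summed to 2979 to 4849 CPM over 7 genes and oligodendrocyte markers to 1579 to 2711 CPM, so the libraries also held RNA of other brain cells. These sums are not scaled for gene length, so they do not compare amounts of RNA between cell types. Choroid plexus markers ranged most widely, from 29.4 CPM to 8097 CPM, both within the WT control group, and replicate 4 of that group was the highest. In such bulk samples, fewer cells of a type and less RNA per cell cannot be told apart.

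Levels are given as CPM scaled by the trimmed mean of M-values, and between genes only per kilobase of exon. On that per-length scale, Hsp90ab1 (mean 103 CPM per kb over 17 libraries) and Hspa8 (101 CPM per kb) were the highest members, followed by Hspa5 (63.0), Hspb1 (36.8) and Hsp90aa1 (30.2 CPM per kb). The co-chaperones were lower, at 11.0 CPM per kb for Hsph1, 7.05 for Bag3 and 5.90 for Dnajb1. The inducible HSP70 genes were lowest, at 1.82 CPM per kb for Hspa1b and 1.58 CPM per kb for Hspa1a.

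Hspa1b, a stress-inducible HSP70, measured 4.98, 3.25, 1.73, 3.48 and 3.24 CPM in WT control libraries and 4.21, 12.3, 4.58, 2.86 and 2.80 CPM in WT inhibitor libraries, replicates 1 to 5. In APP/PS1 it measured 6.19 and 3.99 CPM with control peptide and 3.54, 3.84, 11.1, 2.90 and 11.8 CPM with inhibitor. Only 3 libraries exceeded 10 CPM, all given the inhibitor, and the other 7 inhibitor libraries lay within the range of the control libraries, so the groups overlapped. Hspa1a, its near copy, measured 4.86, 2.72, 2.74, 5.45 and 1.78 CPM in WT control and 4.30, 8.82, 4.40, 4.16 and 2.02 CPM in WT inhibitor libraries. In APP/PS1 it measured 5.70 and 4.08 CPM with control peptide and 5.56, 3.54, 9.23, 2.90 and 7.54 CPM with inhibitor. Its counts were small, 17 to 136 per library, and the same 3 libraries were the highest.

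Hspa8, the constitutive HSP70, measured 487, 292, 300, 534 and 274 CPM in WT control and 401, 742, 343, 313 and 329 CPM in WT inhibitor libraries. In APP/PS1 it measured 645 and 337 CPM with control peptide and 451, 382, 513, 323 and 728 CPM with inhibitor. Every group held libraries below and above the mean of all 17, 435 CPM. Hspa5 measured 222, 231, 211, 332 and 218 CPM in WT control and 275, 355, 196, 225 and 260 CPM in WT inhibitor libraries. In APP/PS1 it measured 353 and 227 CPM with control peptide and 190, 232, 358, 199.8 and 442 CPM with inhibitor. One high library stood apart in the WT control group and the APP/PS1 inhibitor group covered the whole range.

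Among the HSP90 genes, the stress-responsive Hsp90aa1 measured 100.1, 100.5, 104, 144 and 102 CPM in WT control and 107, 156, 108, 106 and 105 CPM in WT inhibitor libraries. In APP/PS1 it measured 149.5 and 93.7 CPM with control peptide and 129, 108.5, 130.2, 108 and 165 CPM with inhibitor. In each WT group 4 libraries were close together and 1 was far above them. Constitutive Hsp90ab1 ranged from 216 to 359 CPM in WT control, 248 to 450.1 CPM in WT inhibitor, 256 to 408 CPM in APP/PS1 control and 230.1 to 467 CPM in APP/PS1 inhibitor libraries.

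Hsph1, an HSP110 exchange factor, measured 65.1, 62.2, 64.0, 81.5 and 56.1 CPM in WT control and 72.4, 113, 67.6, 66.4 and 63.7 CPM in WT inhibitor libraries. In APP/PS1 it measured 97.3 and 67.4 CPM with control peptide and 101.6, 69.9, 110.0, 76.9 and 118 CPM with inhibitor. Leaving aside WT inhibitor replicate 2, the highest 3 APP/PS1 inhibitor libraries and APP/PS1 control replicate 1 lay above every WT library. Only APP/PS1 inhibitor replicate 5 (118 CPM) also exceeded WT inhibitor replicate 2 (113 CPM). The other 3 APP/PS1 libraries lay among the WT values. Hspb1 ranged from 24.4 to 44.8 CPM in WT control, 27.9 to 68.0 CPM in WT inhibitor, 30.3 to 41.4 CPM in APP/PS1 control and 19.4 to 71.2 CPM in APP/PS1 inhibitor libraries. Dnajb1 ranged from 13.1 to 20.5, 14.4 to 23.9, 18.2 to 20.0 and 17.3 to 30.2 CPM in the same order. Bag3, which also links HSP70 to autophagy, ranged from 11.2 to 23.1, 14.6 to 21.9, 17.3 to 23.7 and 14.6 to 24.2 CPM.

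**Figure D1:**
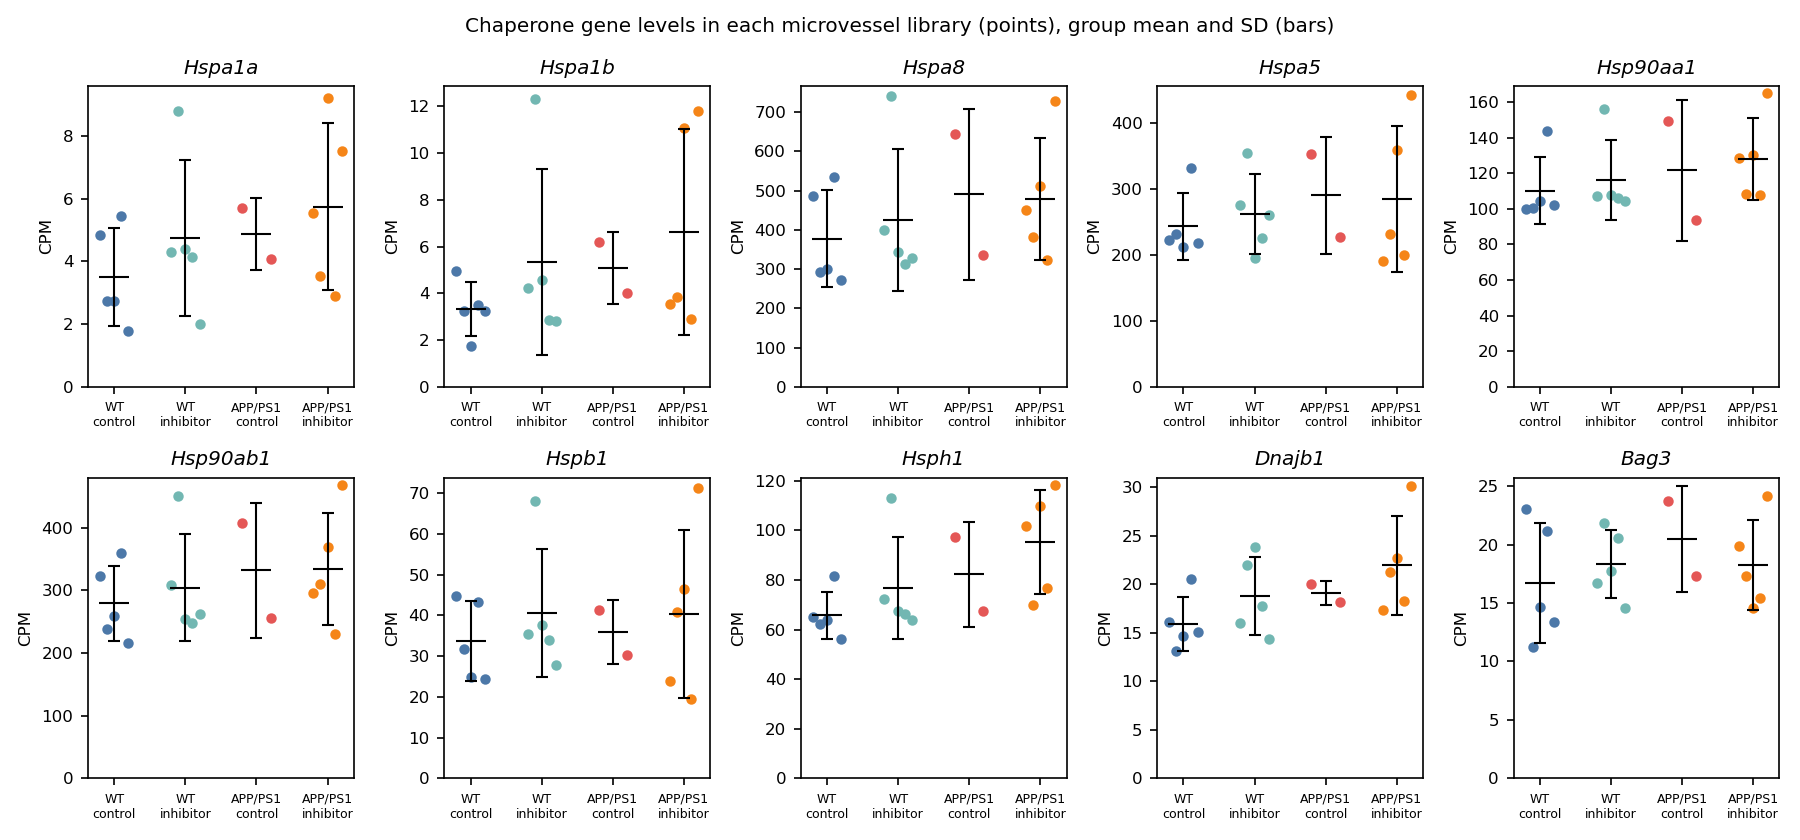
CPM of the 10 genes (y axes, each from 0) in the 4 groups (x axes). Points are libraries, wide bars are group means and error bars are SD. For all 10 genes, which vary together between libraries, the WT control mean is the lowest and the groups overlap.

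The mean of the WT control group was the lowest for 10 of 10 genes, and an APP/PS1 group had the highest for 9 of 10, Hspb1 being the exception. No share over all genes was computed for this order, and the 10 genes vary together between libraries. Without WT inhibitor replicate 2, only 5 of 10 members had a fitted inhibitor change above 0 in WT. The steps between neighbouring groups were small against the spread: of 30 such steps, 1 exceeded the larger SD of its pair. That step was Hspa1b in APP/PS1 control (5.09 ± 1.55 CPM, SD, n = 2) over WT control (3.34 ± 1.15 CPM, SD, n = 5). For Hspa8 the means were 377 ± 123 CPM in WT control (SD, n = 5), 426 ± 180.0 CPM in WT inhibitor (SD, n = 5), 491 ± 218 CPM in APP/PS1 control (SD, n = 2) and 479 ± 156 CPM in APP/PS1 inhibitor (SD, n = 5).

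The first comparison asked whether the genes differed between genotypes. Over both peptides, 0 of 10 members passed the test (edgeR quasi-likelihood F test, adjusted p under 0.05 over 18753 genes), against 0.587% of all genes tested, and DESeq2 called 0 as well. All 10 fitted changes were above 0, with a median of 0.21 on the log2 scale, beside 50.7% of all genes above 0 and a median over all genes of 0.002. No member had genotypes that did not overlap, as 0.267% of all genes did with APP/PS1 higher and 0.00533% with it lower. The members vary together between libraries, so their signs are not separate observations. Hsph1 had the smallest p, with a log2 change of 0.32 ± 0.13 (SE), 1.25-fold with an approximate 95% interval (1.96 SE) of 1.04 to 1.49. Its unadjusted p of 0.0269 in edgeR was the only one under 0.05, where 6.38% of all genes were, and its adjusted p was 0.665. Dnajb1 had a log2 change of 0.24 ± 0.13 (SE) with an adjusted edgeR p of 0.83, and Hspb1 had the smallest, 0.02 ± 0.23 (SE), which fell below 0 on leaving out any of 8 libraries.

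Split by peptide, 0 of 10 members passed with control peptide (0.0533% of all genes did) and 0 of 10 with inhibitor (0.181% of all genes). DESeq2 also called 0 in each. No member had an unadjusted edgeR p under 0.05 in either arm, where 3.97% and 3.38% of all genes did. With control peptide all 10 changes were above 0 (51.2% of all genes), with a median of 0.28 on the log2 scale, but the APP/PS1 arm holds 2 libraries. No member's groups failed to overlap there (3.6% of all genes higher, 3.93% lower). Without APP/PS1 control replicate 1, the log2 changes of Hspa8, Hspa5, Hsp90aa1, Hsp90ab1 and Hspb1 turned to -0.16, -0.10, -0.23, -0.13 and -0.16. With inhibitor 9 of 10 were above 0 (50.6% of all genes), with a median of 0.15, and again no member's groups were separate (0.629% of all genes higher, 0.155% lower). Without APP/PS1 inhibitor replicate 5, 4 of 10 were above 0 and the median was -0.02.

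The inhibitor was compared with its control peptide next. No gene of the 18753 passed over both genotypes, in WT or in APP/PS1 (0% called in each by edgeR), so 0 of 10 members did, and DESeq2 called 0 members. No member had an unadjusted p under 0.05 in any of these, where 2.11%, 1.34% and 1.8% of all genes did. Hspa1b had the highest fitted change over both genotypes, a log2 change of 0.56 ± 0.35 (SE), 1.47-fold with an interval of 0.916 to 2.36. In WT alone it was 0.69 ± 0.46 (SE), and without WT inhibitor replicate 2 it was 0.09. Without that library the log2 changes in WT of Hspa8 (0.17), Hspa5 (0.11), Hsp90aa1 (0.08), Hsp90ab1 (0.13) and Hspb1 (0.26) turned to -0.12, -0.02, -0.05, -0.06 and -0.01. Over both genotypes 10 of 10 members were above 0 (51.4% of all genes) with a median of 0.16, but without WT inhibitor replicate 2 this fell to 5 of 10 with a median of 0.03. In WT 10 of 10 were (50.6% of all genes), with a median of 0.20, and 5 of 10 without that library. In APP/PS1 7 of 10 were above 0 (50.2% of all genes), with a median of 0.12. That count became 10 of 10 without APP/PS1 control replicate 1 and 3 of 10 without control replicate 2, and 4 of 10 without inhibitor replicate 5. No member's groups were separate over both genotypes (0% of all genes either way), in WT (0.133% higher, 0.0907% lower) or in APP/PS1 (2.88% higher, 1.75% lower).

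The interaction, which asks whether the inhibitor's change differed between genotypes, called 0 of 10 members and 0% of all genes by edgeR, and 0 members by DESeq2. No member had an unadjusted p under 0.05 (0.843% of all genes did), and 0 of 10 interactions were above 0 (49.3% of all genes). Without APP/PS1 control replicate 1, 9 of 10 were above 0, and without WT inhibitor replicate 2, 8 of 10, so the shared sign rested on single libraries. Fitted interactions ran from -0.34 ± 0.73 (SE) for Hspa1b to -0.01 ± 0.26 (SE) for Hsp90aa1 on the log2 scale. Intervals were wide: for Hspa1b the ratio of the inhibitor's fold in APP/PS1 to that in WT had an interval of 0.293 to 2.13. These comparisons share control libraries, so their values are set side by side and not counted as separate evidence.

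**Figure D2:**
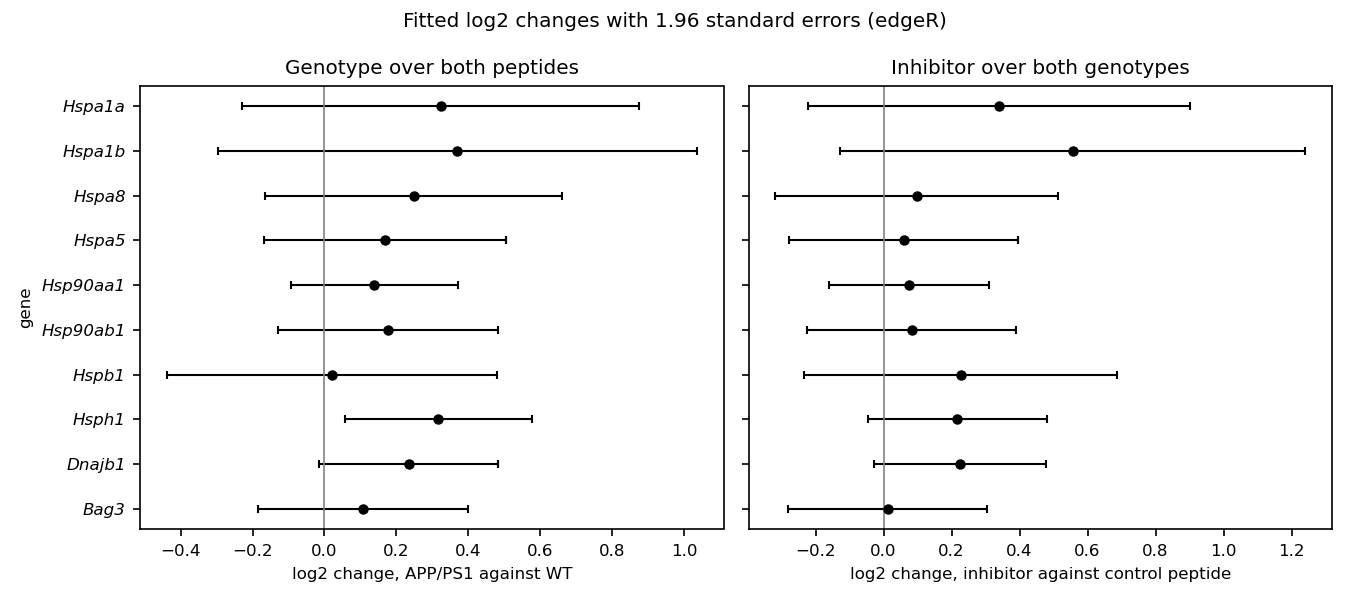
Fitted log2 changes (x axes) of the 10 genes (y axis) for APP/PS1 against WT over both peptides and for inhibitor against control peptide over both genotypes. Points are edgeR estimates and bars 1.96 SE; only the Hsph1 genotype interval lies above 0, before any adjustment.

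Other chaperone genes were taken as 8 lists holding 76 genes, of which 75 were tested. None passed in any of the 7 comparisons by edgeR. Between genotypes over both peptides, 4 of the 75 had an unadjusted p under 0.05 (6.38% of all genes did) and 47 were above 0 (50.7% of all genes), with a median of 0.016 on the log2 scale. The smallest p was that of Hsf2, a heat shock factor, at -0.17 (adjusted edgeR p 0.581). Of the 5 heat shock factors and regulators, 2 had an unadjusted edgeR p under 0.05 and 3 were above 0. The J-domain gene Dnajb5 had the smallest p of its list, at 0.24 (adjusted edgeR p 0.632). The 10 chaperonin genes included Hspe1, the mitochondrial HSP10, at 0.24 (adjusted edgeR p 0.718). For the inhibitor over both genotypes, 52 of 75 were above 0 (51.4% of all genes) with a median of 0.046, and Cct7, a subunit of the cytosolic chaperonin, had the smallest p at 0.19 (adjusted edgeR p 1). It also had the smallest p for the inhibitor in WT, at 0.21 (adjusted edgeR p 1). Hsf4, another heat shock factor, had the smallest p between genotypes with control peptide, at -0.52 (adjusted edgeR p 0.831), for the inhibitor in APP/PS1, at 0.44, and in the interaction, at 0.38. Between genotypes over both peptides, 0 of the 24 ER stress genes passed, 1 had an unadjusted p under 0.05, 22 were above 0 and their median was 0.11. Among 18 immediate early genes 0 passed, 5 had an unadjusted p under 0.05, 16 were above 0 and their median was 0.29, beside 6.38% and 50.7% of all genes.

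Some cell type markers did differ between genotypes. Over both peptides the astrocyte gene Gfap was higher in APP/PS1 by 1.21 ± 0.15 (SE) on the log2 scale (adjusted edgeR p 0.000125). So were the microglia genes Cx3cr1 (0.78), P2ry12 (0.66) and Csf1r (0.63), and Csf3r, the receptor of a neutrophil growth factor (1.04 ± 0.12, SE, adjusted edgeR p 4.27e-05). Csf3r was the only one of the 4 tested neutrophil markers to pass: 2 of the 4 were above 0 with a median of -0.12, and with inhibitor alone 1 of 4 with a median of -0.61. Over both peptides Gfap alone of the 6 astrocyte markers passed, and all 6 were above 0 with a median of 0.21. All 6 microglia markers were above 0, with a median of 0.665. Gfap (1.29) and Csf3r (1.09) also passed with inhibitor alone. The part of these genes' cells in the chaperone values was not tested.

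The larger differences lay between libraries of the same group. Within groups, Hspa1b varied with an SD of 0.77 on the log2 scale, above 97.6% of tested genes, and Hspa1a with 0.66, above 95.5%. Hspb1 (0.55), Hspa8 (0.49), Hspa5 (0.40) and Hsp90ab1 (0.36) followed, while Hsp90aa1 (0.27) and Dnajb1 (0.28) were near the median of all genes, 0.25. Among the WT inhibitor libraries, Hspa1b was 4.40-fold higher in the highest than in the lowest, and Hspa8 2.37-fold.

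The 10 genes were high or low together. In 5 libraries at least 9 of the 10 lay above their group mean: WT control replicate 4, WT inhibitor replicate 2, APP/PS1 control replicate 1 and APP/PS1 inhibitor replicates 3 and 5. In 8 libraries 1 or none did, and every group held libraries of both kinds. In the APP/PS1 control group, with 2 libraries, a high one makes the other low. The mean deviation of the 10 genes from their group means was highest in WT inhibitor replicate 2 (0.68 on the log2 scale), APP/PS1 inhibitor replicate 5 (0.61) and WT control replicate 4 (0.42). It was lowest in APP/PS1 inhibitor replicate 4 (-0.50) and WT inhibitor replicate 5 (-0.36).

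**Figure D3:**
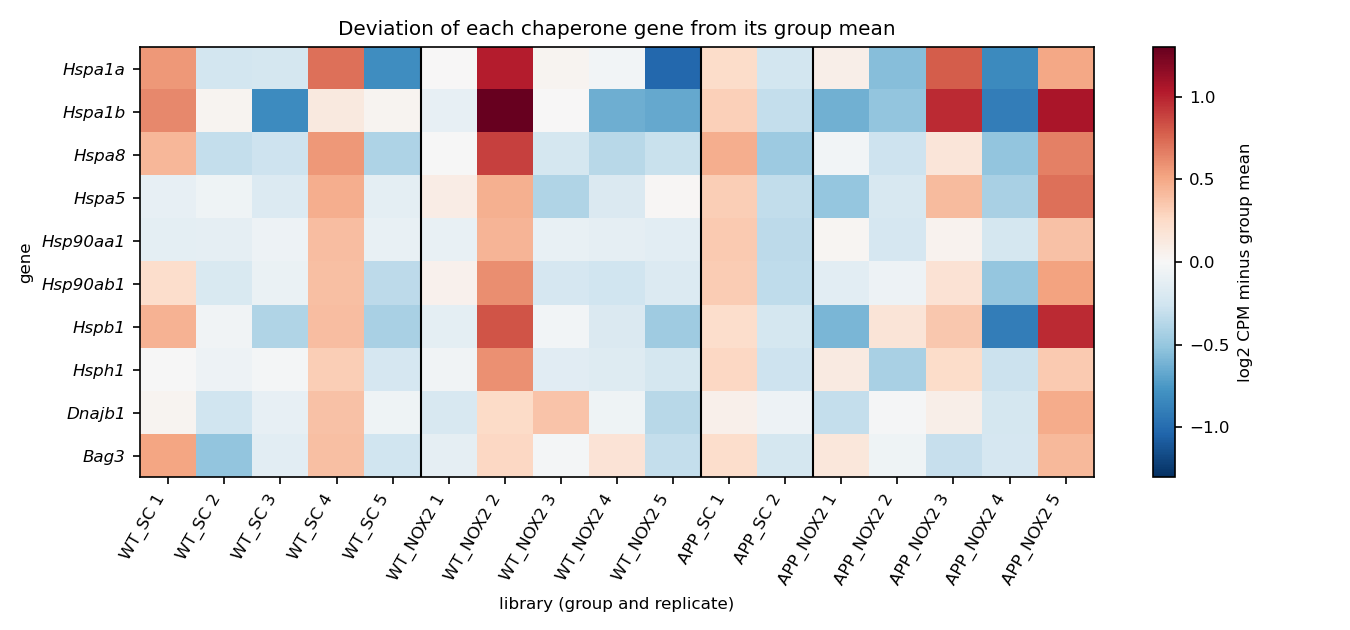
Log2 CPM minus the group mean (colour, red above and blue below) for the 10 genes (rows) in the 17 libraries (columns, vertical lines between groups). The columns of WT control 4, WT inhibitor (WT_NOX2) 2 and APP/PS1 inhibitor (APP_NOX2) 5 are red for all 10 genes.

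Across the 17 libraries, deviations of the 45 pairs of members had a median Pearson r of 0.77, ranging from 0.38 to 0.97, and 17 pairs reached 0.8. Spearman's rho had a median of 0.71. Without WT inhibitor replicate 2 and APP/PS1 inhibitor replicate 5, the libraries farthest from the median, the median r was 0.65 and 6 pairs reached 0.8. Hsp90ab1 reached 0.8 with 7 other members and Hspa8 with 6, whereas Dnajb1 and Bag3 reached it with none. The median r of each member with all 18671 other genes lay between -0.01 and 0.01, and between 0.262% and 1.66% of those genes reached 0.8. These correlations describe libraries that share depth, preparation and composition, the threshold of 0.8 was chosen after values were seen, and no p is given.

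**Figure D4:**
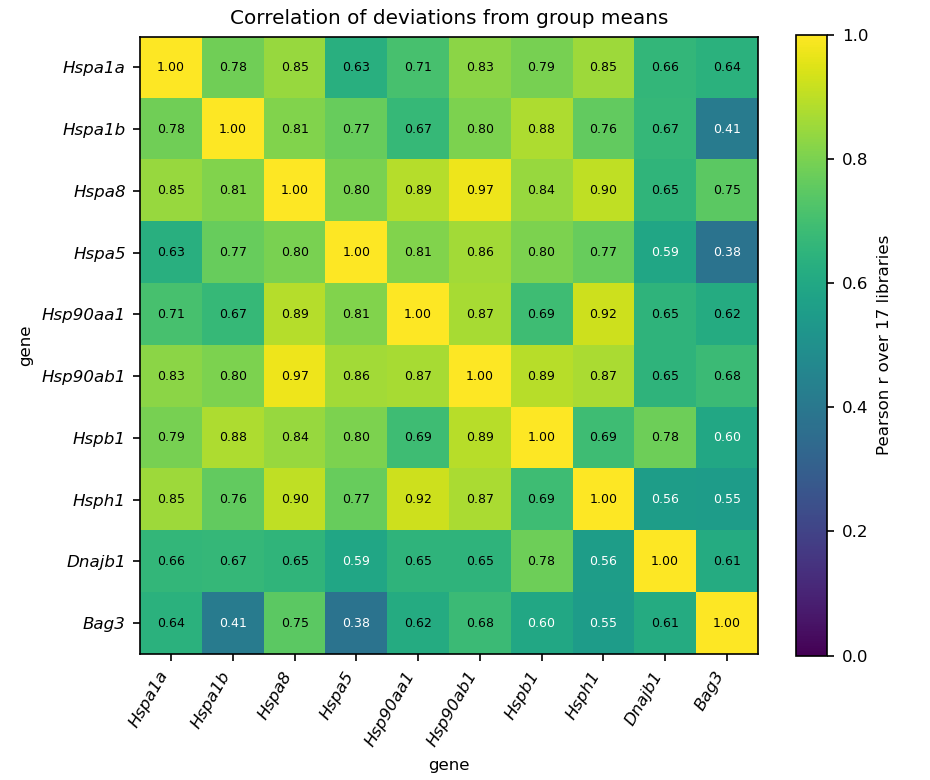
Pearson r between the deviations of each pair of the 10 genes over 17 libraries (colour and printed value). All 45 pairs are above 0, from 0.38 to 0.97, and Dnajb1 and Bag3 reach 0.8 with none of the others.

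For each member the 3 most similar genes outside the list were taken by Pearson r over the 17 libraries. Hspa5 was closest to Pdia6, an ER disulfide isomerase (r = 0.96), then Tmem33 (0.96) and Fkbp4, an HSP90 co-chaperone (0.96). Hspa8 was closest to Rab6a (0.95), Gm15459 (0.95) and Stim2 (0.95), of which Gm15459 shares 34.6% of the Hspa8 windows. Xbp1, a transcription factor of the ER stress response, was among the 3 closest genes of Hspa1b (0.91), Hsp90ab1 (0.94) and Hspb1 (0.93). Ranbp2 was among those of Hsp90aa1 (0.92) and Hsph1 (0.92). The closest gene was Tead4 for Hspa1a (0.92), B3gat2 for Hspa1b (0.92), Spred2 for Hsp90ab1 (0.94), St3gal1 for Hspb1 (0.95), Noct for Hsph1 (0.94), Smad3 for Dnajb1 (0.94) and Rai14 for Bag3 (0.95).

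Other gene lists were set beside the mean deviation of the 10 genes. The mean of 21 other J-domain genes followed it with r = 0.94 and the mean of 24 ER stress genes with r = 0.94, or 0.91 and 0.90 without the 2 farthest libraries. Of the ER stress genes, 10 of 24 reached 0.8 singly, where 1.21% of 18662 other genes did and 1.06% were as strongly negative. Of the J-domain genes, 3 of 21 did. Both lists hold Dnajb9, Dnajb11 and Dnajc3, so their values are not separate. No value over all genes was computed for the r of a list mean. Other HSP70 genes had r = 0.87, HSP90 co-chaperones 0.77, chaperonins 0.76, other HSP90 genes 0.59, and BAG and other exchange factors 0.46. The ER stress list also holds Hyou1 of the HSP70 list and Hsp90b1 of the HSP90 list. Small heat shock proteins other than Hspb1 had 0.17 and heat shock factors -0.02. The small heat shock list includes genes with few counts, such as Hspb2 (1 to 17 per library) and Hspb7 (1 to 15).

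Markers of cell types and activity were set beside the chaperone mean in the same way. Immediate early genes had r = 0.77 (0.73 without the 2 libraries), with summed levels from 412 to 789.9 CPM in WT control, 347 to 816 CPM in WT inhibitor, 489 to 835 CPM in APP/PS1 control and 429 to 879 CPM in APP/PS1 inhibitor libraries. Astrocyte markers had r = 0.78 (0.54 without them), with sums of 3254 to 3629, 3002 to 4438, 3766 to 4777 and 3108 to 5178 CPM in the same order of groups. Neuron markers had r = 0.69 (0.49 without them), with sums of 3438 to 4849, 2979 to 4771, 3717 to 4573 and 3171 to 4469 CPM. Microglia markers had 0.48 (0.27 without them), oligodendrocyte markers 0.30 (0.16) and fibroblast markers 0.24 (0.15). Endothelial markers had 0.40 (0.28 without them), pericyte and smooth muscle markers 0.35 (0.14) and choroid plexus markers -0.34 (-0.17). Neutrophil markers had 0.32 and erythroid markers 0.12, which turned to -0.21 and -0.29 without the 2 libraries. No marker of these lists was at 0 in every library. The total count had r = 0.48 (0.34 without them). The part of these markers, of depth and of tissue composition in the chaperone values was not tested, and the labels give no extraction or sequencing batch.

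**Figure D5:**
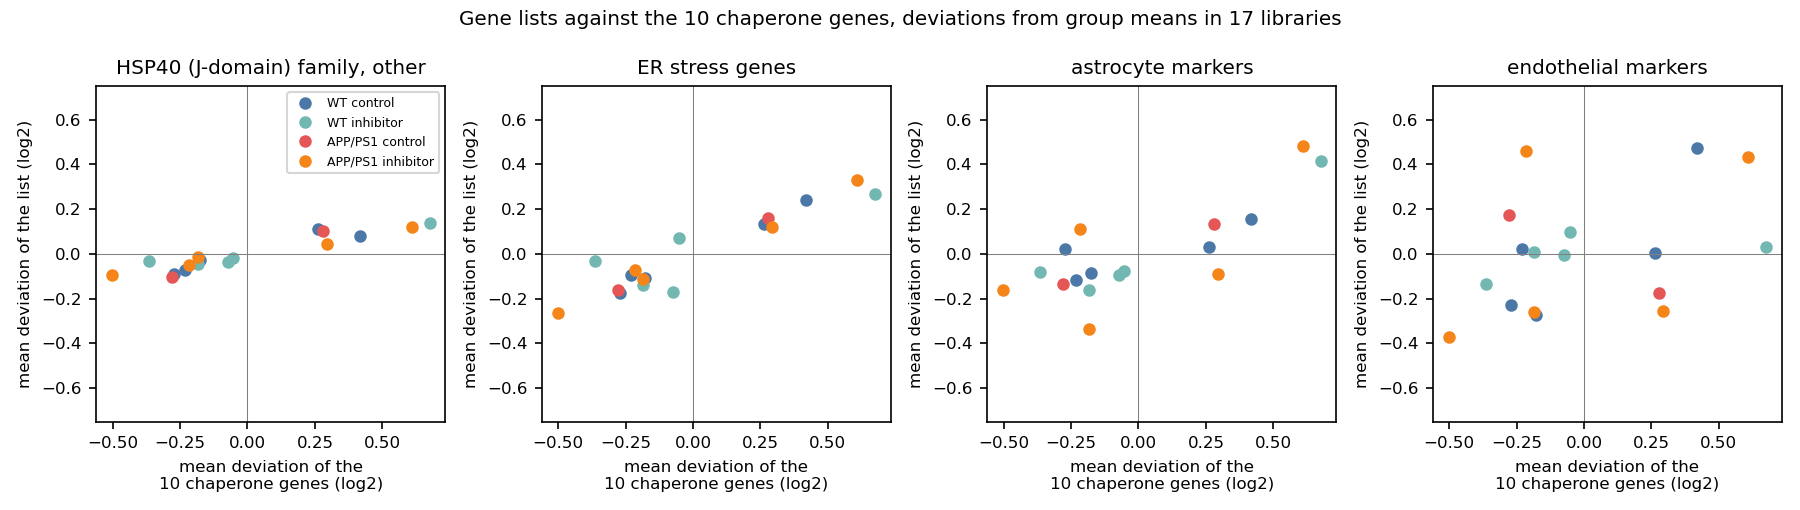
Mean deviation from the group means (log2) of 4 gene lists (y axes) against that of the 10 chaperone genes (x axes) in 17 libraries, coloured by group. J-domain and ER stress lists, which share some genes, follow the chaperone mean (r = 0.94 each), astrocyte markers less closely (0.78) and endothelial markers least (0.40).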

How the data were processed

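RNA of cortical microvessels was sequenced in 17 libraries. Per the labels' protocols, vessels were isolated in a cold room, ribosomal RNA was depleted and a stranded mRNA kit was used. Per the submitters' processing notes, cutadapt, STAR, HTSeq and DESeq2 were used and GRCh37 and mm10 are named, with no role for each. Strand setting, annotation and the handling of multiply mapped reads are not given in the sources used here. The authors deposited whole-number counts per gene, not normalized. The 17 columns matching a sample were used, and 20 value columns matching none were left out. Symbols were found for 42250 of 42687 gene IDs. The members and lists, the tests and the named genes were chosen with earlier results of these data known. For each member the 3 genes most similar by Pearson r were named, and list genes with an adjusted p under 0.05 or, failing any, the chaperone gene with the smallest p. One list gene that met this rule is not reported here. Tests used edgeR 4.0.16 in R 4.3.3: low counts filtered by group, TMM scaling, quasi-likelihood F tests, Benjamini-Hochberg adjustment over 18753 genes. Genotype and peptide effects over both levels came from an additive model and the other 5 comparisons from a model of the 4 group means. Log2 CPM used a prior count of 2. Scripts were tested on simulated data. DESeq2 1.42.0, other scalings, no filter, only the groups compared, and leaving out each library were the alternatives. Totals of 7316503 to 17862965 counts set the precision. Samples were grouped by the labelled genotype and peptide.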

Additional observations from a re-analysis of the deposited data

Results flagged for a closer look

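In groups of 5 libraries, the gap of the highest or lowest value to its neighbour was compared with the range of the group on the log2 scale, against Dixon's critical value of 0.71. Of 33 groups of values examined, 5 had a library set apart, where 33 separate groups would give about 1.65 by chance. The genes vary together and their mean was among the values examined, so these groups are not separate. All 5 were high values in 2 libraries. In WT inhibitor replicate 2 they were Hspa8 (742.1 CPM, narrowly, at 0.712 of the range), Hsp90aa1 (156.1 CPM) and Hsph1 (112.9 CPM). In WT control replicate 4 they were Hspa5 (331.6 CPM) and Hsp90aa1 (143.7 CPM). WT inhibitor replicate 2 had the highest astrocyte (4438 CPM), neuron (4771 CPM) and oligodendrocyte (2073 CPM) marker sums of its group. It was also highest there for pericyte and smooth muscle (1438 CPM), neutrophil (24.57 CPM) and erythroid (31.71 CPM) markers, but not for the other cell types. WT control replicate 4 had the highest choroid plexus marker sum of all libraries (8097 CPM). In its group it was also highest for endothelial (4783 CPM), pericyte and smooth muscle (1468 CPM), astrocyte (3629 CPM) and fibroblast (341.6 CPM) markers, but not for the rest. The part of any of these in the flagged values was not tested.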

How the results depend on the processing

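The count of members past the threshold was 0 in all 144 alternative counts, over 7 comparisons. Under other scalings, DESeq2, no filter and fits of only the groups compared, 250 alternative member changes were computed, 0 past the threshold and 5 with another sign, all of values near 0 (Bag3 and Hsp90aa1). Leaving out each library gave 1190 member changes, of which 97 had another sign, and none passed the threshold. That total includes comparisons of single groups refitted without a library outside those groups, where the changes moved little. Of 80 levels under other scalings 0 moved by 1 SD. Over all genes, the genotype comparison over both peptides called 110 genes, 182 with DESeq2's Wald test and 70 to 125 with 1 library left out. With control peptide it called 10, 45 with DESeq2 and 4 to 17 with 1 library left out, and with inhibitor 34, 61 with DESeq2 and 15 to 38. With 1 APP/PS1 control library left out, the other is assumed to vary like the other groups. No paired analysis was possible because replicate numbers were given in accession order and the labels carry no shared numbers. Counts of Hspa1a and Hspa1b, 17 to 190 per library, limit their precision.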
